A study of Mus musculus with 4 samples.

Results

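Among 4108 intestinal stromal cells of 1 single-cell library, 538 cells fell under a rule for villus fibroblasts with high levels of a pair of genes that the transcriptional coactivators YAP and TAZ are known to control, Vegfc and Amotl2, and with low levels of immediate early genes. Those 538 cells, called members here, made up 13.1% of the library (exact 95% interval 12.1–14.2%). The members were chosen from measured values. A cell had to hold a UMI (unique molecular identifier, 1 counted transcript) of the villus fibroblast gene Adamdec1, and at most 2 of 6 markers of submucosal fibroblasts (FB4), 1 of 3 of subepithelial fibroblasts (FB5), 1 of 4 of mural and smooth muscle cells and 1 of 3 of the villus fibroblasts called vFB3. This gate held 2582 cells. Members then had at least 3 UMIs of Vegfc and Amotl2 together per 10000 UMIs of the cell, and fewer than 15 of Fos, Fosb and Egr1 together. The same thresholds put the rest of the gate into 350 YAP-high cells with high immediate early genes (YAP-high IEG-high), 988 YAP-low IEG-low cells and 706 YAP-low IEG-high cells.

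The mice were adult C57BL/6J animals in which Pdgfrb-CreERT2, a tamoxifen-inducible Cre recombinase, switched on a tdTomato reporter and deleted floxed Lats1 and Lats2 in cells that express Pdgfrb, and the library was labelled LATS1/2 KO 1w, for 1 week after tamoxifen. Of the 4 samples in the series only this one enters here, and a later LATS1/2 KO sample (2w) and a pair of wild-type samples were not analysed. The study describes the single-cell data of each genotype as coming from 2 mice, and the labels do not say how many animals this library holds. Cells of the small intestine were sorted on tdTomato after removal of serosa, muscle and Peyer's patches, so the reporter marks where Cre acted and does not show that both kinases were lost in each cell. The Cre line acts in pericytes and smooth muscle as well as in fibroblasts. All members and all cells they are compared with share the same deletion and come from the same library. Cells are not replicates, so no comparison has a p-value, and each interval, given in brackets or after a comma, is an exact 95% interval that covers counting error only.

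LATS1 and LATS2 are the kinases at the end of the Hippo cascade. They phosphorylate YAP and TAZ and keep them out of the nucleus, where YAP and TAZ would otherwise act on genes through TEAD transcription factors. VEGF-C is the main growth factor of lymphatic vessels, and in the villus it maintains the lacteal, the lymphatic capillary that takes up dietary fat. Immediate early genes such as Fos and Egr1 respond within minutes to many stimuli, tissue dissociation among them.

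TEAD factors recognise the letters GGAATG, or CATTCC on the other strand. RefSeq promoters on GRCm38.p6, from 250 bases before to 50 bases after each listed start, were searched for these 6 letters on both strands. Windows of 30 bases around a match are shown for genes on which the results below turn, with the match in capitals.
Amotl2: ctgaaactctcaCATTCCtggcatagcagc
Crim1: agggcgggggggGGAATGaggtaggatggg
Cyr61: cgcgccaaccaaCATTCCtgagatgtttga
Bdnf: ggcccctcccagCATTCCgaccgaccgctg
Rai14: ggagcgcgggtgGGAATGaatgaccggacc
Il33: gtaacattggcaGGAATGctattagcttat
They lie at chr9:102717727-102717756 (plus strand), chr17:78200157-78200186 (plus), chr3:145650071-145650100 (minus), chr2:109722832-109722861 (plus), chr15:10714203-10714232 (minus) and chr19:29924970-29924999 (plus). These genes were shown because they hold a match. Amotl2 belongs to the rule, the next 4 genes were higher in members than in YAP-low IEG-low cells, and Il33 was lower. Bdnf has 7 listed starts, and Rai14 and Il33 each have 2, and 1 match of each is shown. Of the 136 genes at least 2-fold higher in members, 94 had a promoter in the table and 19 of these (20.2%) held the letters. The share was 12 of 98 (12.2%) for genes at least 2-fold lower, 1121 of 7986 (14.04%) for all genes compared, 4481 of 27025 (16.6%) for all genes in the table and 14.7% of all 32851 promoters. In the list of 24 YAP/TAZ target genes 17 had a promoter and 8 held the letters (47.1%). Other motifs were searched in the same promoters. The AP-1 letters TGANTCA, the same on both strands, stood in 11 of the 94 (11.7%), 7 of the 98 (7.14%), 5.71% of genes compared, 8.97% of all genes and 7.81% of all promoters, and the CArG box in 2 (2.13%), 3 (3.06%), 1.49%, 1.81% and 1.63%. The promoters of Vegfc, Tex14, Sertm1, Fmod and Adm held no match in this window, and sequence outside it was not searched. A match is a description of the letters and not a binding site.

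The values that chose the members are described without a test. The Vegfc and Amotl2 sum of members had a median of 5.01 UMIs per 10000 and ranged from 3.002 to 15.02, against a median of 0.919 in YAP-low IEG-low cells. Members held a median of 3 Vegfc and 3 Amotl2 UMIs, and 468 of them held both genes, 29 Vegfc only and 41 Amotl2 only. Just inside the threshold, with sums from 3 to under 4, were 154 members, and just outside it, from 2 to under 3, were 174 IEG-low cells. The Fos, Fosb and Egr1 sum had a median of 0.824 in members and 40.9 in YAP-high IEG-high cells, with 49 members from 10 to under 15 and 41 YAP-high cells from 15 to under 20. Vegfc (mm10 chromosome 8, 54077606 to 54187096) stood at 293 per 1000000 UMIs (CPM) in members and 47.6 in YAP-low IEG-low cells. Amotl2 (chromosome 9, 102716672 to 102733418), an angiomotin that binds YAP, stood at 266 against 48.5.

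The cells were checked against markers. Adamdec1 stood at 4168 CPM in members and 5092 in YAP-low IEG-low cells, and at 871 in the 943 cells outside the gate with FB4 markers. The rule used this gene. The other 3 genes of the vFB1-2 list, which it did not use, summed to 146 CPM in members, below the 217 of YAP-low IEG-low cells and the 435 of cells with FB4 markers, so they did not mark the members. The vFB3 list without rule genes summed to 319 CPM in members, 290.5 in YAP-low IEG-low cells and 1066 in cells with vFB3 markers. Pdgfrb, the gene whose promoter drove Cre, stood at 770.1 CPM in members. The blood endothelial genes Pecam1 and Cdh5, the lymphatic genes Prox1, Lyve1, Flt4 and Ccl21a, the mesothelial list and the mural gene Vtn were at 0 in the 6495302 UMIs of the members, which allows up to 3 UMIs each as a fixed floor. The blood endothelial list had 4 of 6 genes above 0 in members, with a sum of 7.54 CPM and UMIs in 7.99% of members, against 9.15 CPM in YAP-low IEG-low cells and 260.0 in cells with vFB3 markers. Of the 7 mural genes 5 were above 0, with a sum of 32.3 CPM without the genes of the rule. By the study's methods, blood, epithelial and endothelial cells were depleted with antibody beads before sorting. Remaining immune and endothelial cells were removed after a first clustering. Epithelial markers summed to 0.770 CPM, glial and neuronal markers to 1.85 and immune markers to 54.0, of which Lyz2 made up 37.7. Lyz2, a lysozyme of macrophages, was higher in members than in YAP-low IEG-low cells, with a ratio of 2.53 (2.05–3.13), and the part of macrophage RNA in other ratios was not tested. Pdpn, in the lymphatic list and also a fibroblast gene, made up all of that list's 417 CPM, with a ratio of 1.80 (1.702–1.905). Rgs5, a gene used here as a mural marker, was present in every group of the gate, at 425 CPM in members and 512 in YAP-low IEG-low cells. These values could not check the name of villus fibroblasts independently, since the rule fixed Adamdec1 above 0 and limited the mural markers. The label was kept as the name of the rule.

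Depth and the split of the columns differed between the groups. The median cell had 11853.5 UMIs in members, 11641.5 in YAP-high IEG-high cells, 9573.5 in YAP-low IEG-low and 9944.0 in YAP-low IEG-high cells, and mitochondrial genes took a median of 4.95%, 4.64%, 5.26% and 4.78% of UMIs. The file marks its columns M or F. The F columns are exactly those with an Xist UMI, so the mark depends on detection and may vary with depth. Median depth was 12244 UMIs in F and 11330 in M members, and 10160 and 9056 in YAP-low IEG-low cells. Of the members 61.9% were F columns, against 49.1%, 48.5% and 40.2% of the other groups in the same order. Members made up 26.3% (23.9–28.8) of the gated F cells and 15.6% (13.7–17.7) of the gated M cells. The part of depth, mitochondrial share and the M and F split in the results was not tested, and ratios within a depth window and within each mark are given below.

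None of the 3 markers that the thresholds did not use followed 1 side alone. Tex14 and Ecscr separated the YAP sides, Sertm1 separated the immediate early sides, and all 3 were highest in members among the 4 gated groups. Tex14 (chromosome 11, 87405065 to 87555823), known for intercellular bridges of germ cells, stood at 90.8 CPM (83.7–98.5) in members, 60.4 in YAP-high IEG-high, 27.7 in YAP-low IEG-low and 9.296 in YAP-low IEG-high cells. Ecscr (chromosome 18, 35713086 to 35722356), named as an endothelial surface protein, stood at 76.1 CPM (69.5–83.1) in members, 47.7 in YAP-high IEG-high, 19.7 in YAP-low IEG-low and 8.03 in YAP-low IEG-high cells, in cells without Pecam1 UMIs. Both were higher in each YAP-high group than in each YAP-low group, with members highest, and their ratios to YAP-high IEG-high cells were 1.504 (1.29–1.75) and 1.595 (1.35–1.89). Sertm1 (chromosome 3, 54897068 to 54915887), a membrane protein of little known function, stood at 42.3 CPM (37.5–47.6) in members, 11.7 in YAP-high IEG-high, 30.7 in YAP-low IEG-low and 5.07 in YAP-low IEG-high cells, so the 2 IEG-low groups held the higher levels. Its ratio to YAP-high IEG-high cells was 3.61, and 7.06 with a threshold of 25 on the immediate early genes. When the gate allowed no marker of another class beyond 1 of FB4, which left 51 members, it was 0.800. All 3 were also present in the 84 cells outside the gate with vFB3 markers, at 166, 64.8 and 134 CPM. After thinning each cell to 5000 UMIs, 28.7% (24.9–32.7) of members held a Tex14 UMI against 8.96% (7.24–10.9) of YAP-low IEG-low cells and 2.46% (1.56–3.66) of cells with FB4 markers. Unthinned, the shares were 48.9%, 14.98% and 4.45%.

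The YAP side was then described across genes by the ratio of members to YAP-low IEG-low cells. Of 9956 genes kept (at least 5 CPM over both groups, without the genes of the rule), 372 (3.74%) were at least 1.5-fold higher in members and 450 (4.52%) at least 1.5-fold lower, around a median ratio of 0.996. Of these 822 genes, 815 lay on the same side of 1 in both the M and the F columns, whose cells together gave the ratios that chose these genes, so this count is a description. The corresponding ratio among IEG-high cells, YAP-high to YAP-low, lay on the same side for 774 of the 822. That second ratio uses no cell of the first.

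A minority of the Hippo pathway genes passed 1.5-fold, nearly all of them on the higher side. Of the 24 YAP/TAZ target genes listed, 2 set the rule and 5 fell below the level filter. Of the 17 other YAP/TAZ target genes kept, 6 were at least 1.5-fold higher, 1 was lower and 10 lay between, with a median ratio of 1.25. Crim1, a transmembrane regulator of BMP and VEGF availability, stood at 128 CPM (119.7–137) in members, 145 in YAP-high IEG-high, 45.3 in YAP-low IEG-low and 52.5 in YAP-low IEG-high cells, a ratio of 2.83 (2.52–3.18). Ajuba, a LIM protein that restrains LATS kinases, had a ratio of 2.78 (1.98–3.93), Myof, a membrane repair protein, 1.84 (1.47–2.305), and Ctgf, a secreted matricellular protein, 1.502 (1.34–1.69). Cyr61, the other classical CCN target, stood at 221 CPM (210.1–233) in members, 1036 in YAP-high IEG-high, 147 in YAP-low IEG-low and 492 in YAP-low IEG-high cells. Its ratio on the YAP side was 1.504 (1.397–1.62), and its level in YAP-high IEG-high cells was several times that of members. Gadd45a, a DNA damage response gene, was lower (0.5295, 0.4098–0.679). The targets Axl (0.785, 0.724–0.850) and Igfbp3 (0.728, 0.693–0.764) stood below 1 without passing 1.5-fold, and Ankrd1, a muscle ankyrin often used as a readout, had 0 UMIs in all 4 groups of the gate.

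In the Hippo cascade and TEAD list 6 of 20 genes kept were higher and none was at least 1.5-fold lower, with a median ratio of 1.10. Tead1, which encodes a DNA-binding partner of YAP, stood at 147 CPM (138–156) in members, 144 in YAP-high IEG-high, 79.6 in YAP-low IEG-low and 73.1 in YAP-low IEG-high cells. Vgll3 and Vgll4, cofactors that bind TEAD in place of YAP, had ratios of 2.87 (2.52–3.26) and 1.61 (1.42–1.82). Frmd6 and Wwc2, upstream activators of the kinases, stood at 2.12 (1.97–2.28) and 1.53 (1.36–1.71). The kinase gene Lats2, itself a known target of YAP and a floxed gene here, was counted in both lists and stood at 73.7 CPM (67.3–80.7) in members, 80.2 in YAP-high IEG-high, 39.1 in YAP-low IEG-low and 48.6 in YAP-low IEG-high cells, a ratio of 1.89 (1.65–2.17). Lats1 had a ratio of 0.726 (0.528–0.988). A 3-prime tag need not lie in the floxed exon, so neither value measures the deletion. The transcripts of the coactivators themselves were not higher, with 0.909 (0.774–1.07) for Yap1 and 0.705 (0.641–0.775) for Wwtr1, the gene of TAZ.

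**Figure D1:**
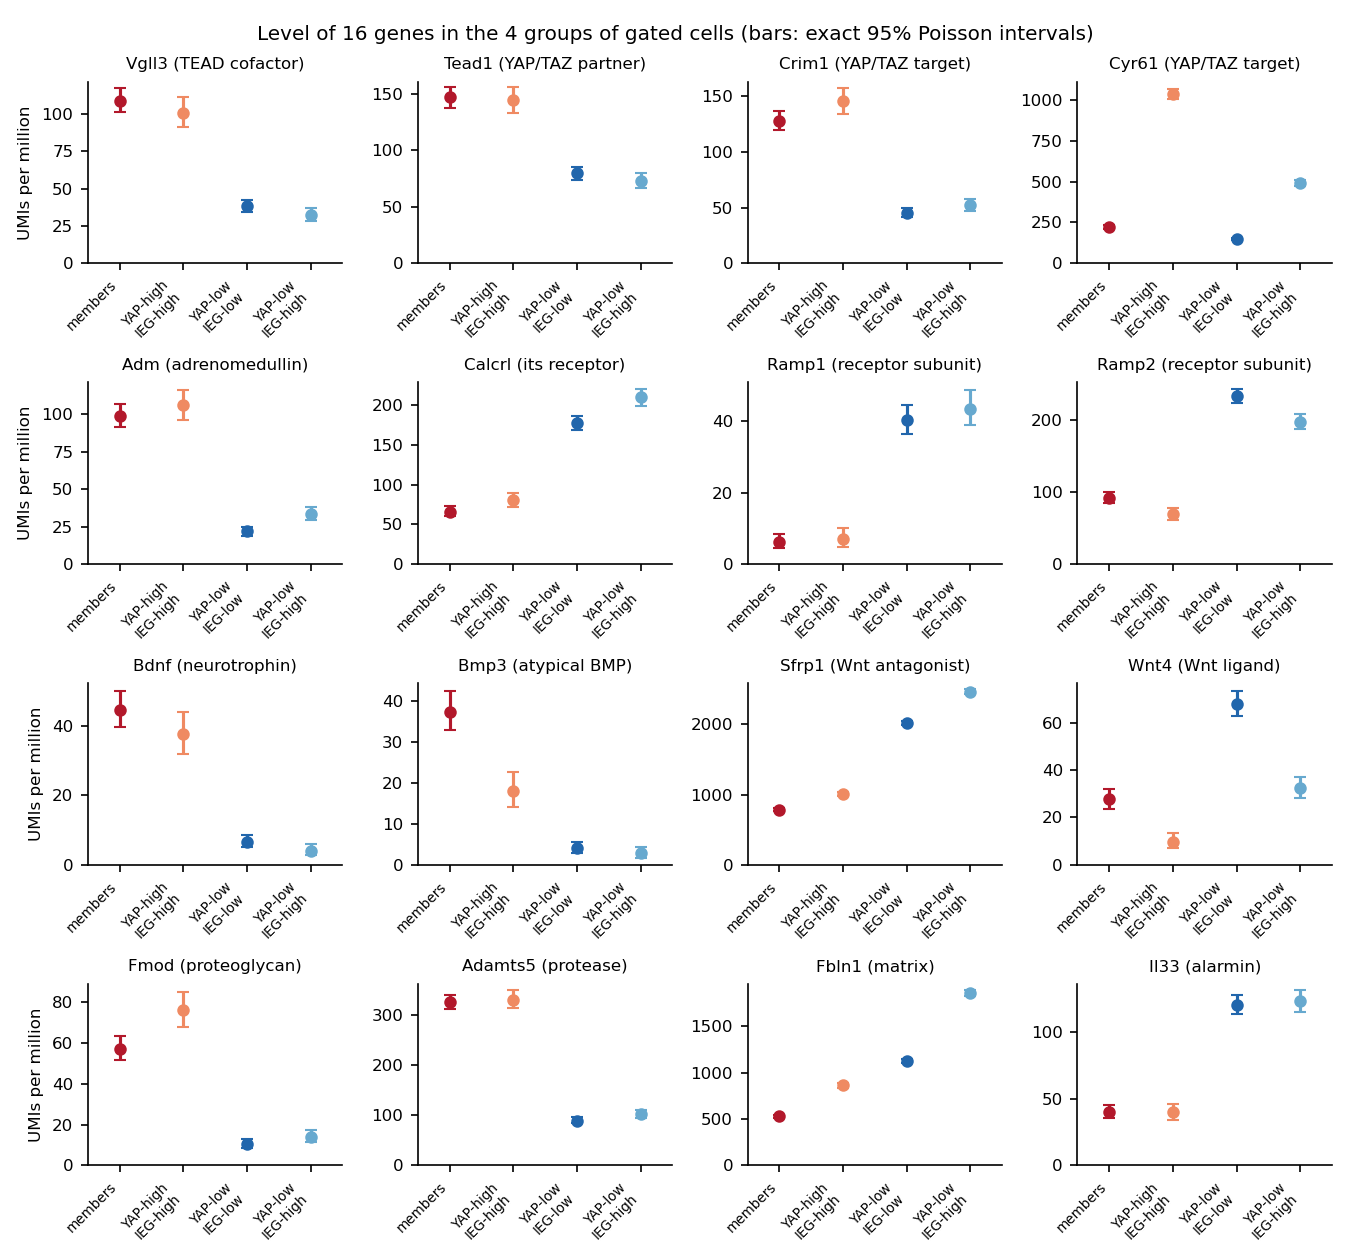
Each panel plots the level of 1 gene in CPM (y axis, from 0) in the 4 groups of gated cells (x axis), with exact 95% Poisson intervals as bars. Vgll3, Tead1, Crim1, Adm, Bdnf, Bmp3, Fmod and Adamts5 stood higher in both YAP-high groups, Calcrl, Ramp1, Ramp2, Sfrp1, Fbln1 and Il33 stood lower in both, and Cyr61 was highest in the YAP-high IEG-high cells at 1036.

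Secreted factors, mostly of vessels and nerves, were the list with the highest median ratio. The list was chosen with earlier results of these data known, so its rank is a description. Of 17 kept besides Vegfc, 8 were at least 1.5-fold higher and 2 lower, with a median ratio of 1.32. Bdnf, a neurotrophin, stood at 44.6 CPM (39.7–50.1) in members, 37.7 in YAP-high IEG-high, 6.68 in YAP-low IEG-low and 4.08 in YAP-low IEG-high cells, a ratio of 6.68 (5.09–8.88). Wisp2, a CCN family protein, stood at 15.4 CPM (12.5–18.7) in members, 11.5 in YAP-high IEG-high, 1.23 in YAP-low IEG-low and 2.11 in YAP-low IEG-high cells, a ratio of 12.5 (6.84–24.95) that rests on 12 UMIs in the YAP-low IEG-low cells. In the M columns alone its ratio was 40.7, and with the rule applied to a random part of each cell's UMIs and levels read from the rest it was 5.05. The angiopoietins Angpt1 and Angpt2, ligands of TIE2, had ratios of 2.09 (1.68–2.599) and 3.23 (2.38–4.43), and the guidance cues Sema3c and Sema3d 1.64 (1.49–1.81) and 3.26 (2.58–4.15). When cells were thinned to 5000 UMIs before the rule was applied, as for all ratios after thinning below, Angpt2 stood at 1.99. Ccbe1, which promotes the proteolytic activation of VEGF-C, stood at 17.7 CPM (14.6–21.2) in members, 25.9 in YAP-high IEG-high, 10.6 in YAP-low IEG-low and 12.8 in YAP-low IEG-high cells. Vegfd, the other ligand of VEGFR3, had a ratio of 1.32 (1.103–1.58) and did not pass 1.5-fold. Pgf and Vegfa, ligands that act on blood vessels, were lower, at 0.377 (0.301–0.469) and 0.6196 (0.408–0.923).

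Adm, Calcrl, Ramp1 and Ramp2 belong to different lists and were set side by side after their values were seen. Adm encodes adrenomedullin, a peptide that acts on lymphatic and blood endothelium through the receptor CALCRL paired with RAMP2 or RAMP3. CALCRL with RAMP1 forms the receptor of the neuropeptide CGRP. Adm stood at 98.8 CPM (91.3–107) in members, 106 in YAP-high IEG-high, 21.8 in YAP-low IEG-low and 33.4 in YAP-low IEG-high cells, a ratio of 4.53 (3.88–5.32). The other 3 genes stood on the opposite side. Calcrl stood at 66.05 CPM (59.9–72.6) in members, 80.4 in YAP-high IEG-high, 178 in YAP-low IEG-low and 210.3 in YAP-low IEG-high cells, a ratio of 0.371 (0.333–0.413). Ramp1 stood at 6.16 CPM (4.40–8.39) in members, 7.09 in YAP-high IEG-high, 40.2 in YAP-low IEG-low and 43.5 in YAP-low IEG-high cells, a ratio of 0.153 (0.108–0.212), and Ramp2 at 91.6 CPM in members against 233, a ratio of 0.393 (0.358–0.4303). In both YAP-high groups Adm was above and Calcrl, Ramp1 and Ramp2 were below their levels in both YAP-low groups.

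The list of receptors and channels also holds secreted proteins, such as Igfbp5, Fgf7 and Gas6. Of its 28 genes kept, 10 were at least 1.5-fold lower in members and 1 was higher, with a median ratio of 0.868. The lower genes included the potassium channel Kcnk3, with 5 UMIs in members and a ratio of 0.0594 (0.01896–0.142) that was 0.303 after thinning, the purine receptor P2ry1 (0.371, 0.3104–0.442) and the fibroblast growth factor Fgf7 (0.469, 0.355–0.613). Gas6, the ligand of the TAM receptors, was the higher one, at 339.6 CPM (326–354) in members, 477 in YAP-high IEG-high, 139 in YAP-low IEG-low and 183 in YAP-low IEG-high cells. Pdgfra, the receptor that marks fibroblasts near the epithelium, had a ratio of 0.678 (0.6401–0.717), and Pdgfrb, the other PDGF receptor, one of 1.40 (1.35–1.45).

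Niche signals to the epithelium passed 1.5-fold mostly on the lower side. Of 21 Wnt, R-spondin and BMP genes kept, 6 were at least 1.5-fold lower and 1 was higher, while the median ratio was 1.05. The secreted Wnt antagonist Sfrp1 stood at 785 CPM (764–807) in members, 1008 in YAP-high IEG-high, 2014 in YAP-low IEG-low and 2465 in YAP-low IEG-high cells, a ratio of 0.3901 (0.378–0.402). The Wnt ligands Wnt4 and Wnt2b had ratios of 0.405 (0.342–0.479) and 0.582 (0.456–0.738), Rspo3, which amplifies Wnt signals, 0.529 (0.453–0.615), Bmp2 0.615 (0.545–0.693) and Tgfb3 0.619 (0.516–0.739). After thinning Wnt4 stood at 0.665. An antagonist and ligands of the Wnt pathway were thus lower in the same cells. Bmp3, an atypical BMP that opposes the others, had the highest ratio among genes seen in at least 10% of members and with at least 50 UMIs in both groups together. It stood at 37.4 CPM (32.9–42.4) in members, 18.1 in YAP-high IEG-high, 4.11 in YAP-low IEG-low and 2.82 in YAP-low IEG-high cells, a ratio of 9.096 (6.49–13.05). When cells were thinned before the rule was applied the ratio was 4.37, and under the split of UMIs 3.09. Bmp4, which restrains epithelial renewal, had a ratio of 1.48 (1.42–1.54).

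Transcription factors and pathway readouts of the stroma passed 1.5-fold in both directions. Of 22 genes in the Hedgehog, Notch and stromal factor list, 3 were higher and 3 lower, with a median ratio of 1.04. Tcf21, a fibroblast lineage factor, stood at 1755 CPM (1723–1788) in members, 1469 in YAP-high IEG-high, 1143 in YAP-low IEG-low and 883 in YAP-low IEG-high cells, and Foxp2 and the Notch ligand Jag1 had ratios of 1.58 (1.36–1.83) and 1.802 (1.26–2.59). The lower genes included the Hedgehog effector Gli2 (0.653, 0.509–0.834) and the epithelial growth signal Nrg1 (0.410, 0.247–0.657). The standard Hedgehog readouts Gli1 and Ptch1 had ratios of 0.946 (0.785–1.14) and 1.05 (0.984–1.12), whose intervals both include 1.

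Matrix genes, the longest list, passed 1.5-fold in both directions. Of 37 matrix and protease genes kept 13 were at least 1.5-fold higher and 7 lower, with a median ratio of 0.961. Fmod, a collagen-binding proteoglycan, stood at 57.1 CPM (51.5–63.2) in members, 76.04 in YAP-high IEG-high, 10.5 in YAP-low IEG-low and 14.1 in YAP-low IEG-high cells, a ratio of 5.45 (4.36–6.85). Ogn, a proteoglycan of the same family, stood at 1072 CPM (1047–1097) in members, 969 in YAP-high IEG-high, 308 in YAP-low IEG-low and 209 in YAP-low IEG-high cells, and Adamts5, a protease of aggrecan and versican, at 325 CPM (311–339) in members, 329.8 in YAP-high IEG-high, 89.4 in YAP-low IEG-low and 102 in YAP-low IEG-high cells. Thrombospondin 1 (Thbs1), a matricellular activator of TGF-beta, had a ratio of 2.35 (2.15–2.58), the elastic fibre protein Fbln5 2.25 (2.196–2.31), fibronectin (Fn1) 1.78 (1.72–1.84) and the crosslinking enzyme Lox 1.54 (1.39–1.704). On the lower side were the protease Mmp3 (0.355, 0.285–0.439), elastin (Eln, 0.548, 0.508–0.591) and Fbln1, a glycoprotein of elastic and basement membrane matrix, at 529 CPM (511–547) in members, 864 in YAP-high IEG-high, 1129.9 in YAP-low IEG-low and 1858 in YAP-low IEG-high cells. The pair of fibulins thus lay on opposite sides. With a threshold of 5 on the Vegfc and Amotl2 sum the ratio of Mmp3 was 0.730, and it was 0.215 in M columns and 0.204 under the split of UMIs.

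Of 25 collagen and basement membrane genes kept, 3 were higher and 3 lower. Higher were Col8a1 (3.28, 2.42–4.51), Nid2 (2.02, 1.78–2.29) and Col14a1 (1.79, 1.72–1.86), and lower were Col5a3 (0.484, 0.405–0.576), Col6a4 (0.543, 0.342–0.8395) and Col15a1 (0.600, 0.5598–0.643). The main fibrillar gene Col1a1 stood at 3089.6 CPM in members and 2402 in YAP-low IEG-low cells, a ratio of 1.29 (1.26–1.31). Contractile and cytoskeletal genes passed 1.5-fold on the higher side in 8 of 27 cases against 1 lower, with a median ratio of 1.23. Tagln, an actin-binding protein of contractile cells, stood at 368 CPM (354–384) in members, 301 in YAP-high IEG-high, 184 in YAP-low IEG-low and 83.4 in YAP-low IEG-high cells, a ratio of 2.004 (1.88–2.13). Under the same split of UMIs as for Wisp2 its ratio was 1.23. Tpm1 and Cnn2, which also bind actin, had ratios of 1.79 (1.73–1.86) and 2.08 (1.94–2.23). Acta2, smooth muscle actin, had a ratio of 1.37 (1.31–1.43). Tagln and Acta2 were far higher in the 293 cells outside the gate with mural and smooth muscle markers, at 2943 and 3618 CPM. In members the smooth muscle list summed to 86.4 CPM with all 6 genes above 0, and of its 4 genes kept Synpo2 was higher (1.84, 1.54–2.203), Myh11 (0.465, 0.336–0.634) and Lmod1 (0.539, 0.358–0.796) were lower and 1 lay between. The part of such cells in the ratios of Tagln and Acta2 was not tested.

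Immune signals of the stroma passed 1.5-fold in both directions, 5 lower and 4 higher of 25 kept, with a median ratio of 0.835. Il33, an alarmin, stood at 40.2 CPM (35.5–45.4) in members, 39.9 in YAP-high IEG-high, 121 in YAP-low IEG-low and 123 in YAP-low IEG-high cells, a ratio of 0.333 (0.290–0.381). The B cell attractant Cxcl13 had a ratio of 0.333 (0.3004–0.368), complement C3 0.434 (0.398–0.473) and Cxcl16 0.605 (0.568–0.645). The cytokine Il1b, outside this list but among the lowest ratios of all, stood at 5.54 CPM (3.88–7.67) in members, 11.5 in YAP-high IEG-high, 36.5 in YAP-low IEG-low and 33.9 in YAP-low IEG-high cells. Its ratio was 0.152, and 0.254 after thinning and 0.255 with a threshold of 2 on the Vegfc and Amotl2 sum. It was 0.0899 in M columns and 0.0818 with at most 5% mitochondrial UMIs. Higher were Csf1 (1.52, 1.401–1.65) and Il34 (1.94, 1.51–2.49), both ligands of the macrophage receptor CSF1R, with Cxcl1 (2.68, 1.95–3.72) and Ptgs2 (2.55, 1.83–3.56). Under that split of UMIs Cxcl1 had a ratio of 1.45. Of 19 interferon response genes kept, 1 passed 1.5-fold, Bst2 at 1.73 (1.65–1.82). Heat shock genes had 0 of 12 past 1.5-fold on the YAP side, with a median ratio of 1.11. Of 19 immediate early genes kept, 2 were lower, Jun (0.561, 0.514–0.612) and Ier2 (0.548, 0.478–0.628), and of 8 cell cycle genes 1, Cdkn1a (0.3901, 0.264–0.564), which stood at 0.809 after thinning.

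Among all genes, the 12 highest ratios on the YAP side after the filters of the naming rule were Bmp3, Bdnf, Plekha7 (6.49, 4.003–10.98), Fabp5 (5.61, 4.005–8.02), Fmod, Fbn2 (5.06, 3.73–6.97), Plscr2 (4.84, 3.64–6.51), Adm, Dpp4 (4.41, 2.98–6.66), Hspb2 (4.15, 2.92–6.001), Ecscr (3.85, 3.25–4.58) and Rai14 (3.803, 2.82–5.17). Fbn2 encodes a microfibril protein, Fabp5 a fatty acid carrier, Dpp4 a surface peptidase and Rai14 an actin-binding protein. The 12 lowest were Il1b, Ramp1, Arl4d (0.282, 0.187–0.413), Enpp2 (0.282, 0.199–0.393), Penk (0.294, 0.205–0.412), Adh1 (0.305, 0.246–0.376), Epha5 (0.311, 0.223–0.426), Nav1 (0.317, 0.264–0.379), Lrrc55 (0.324, 0.2496–0.416), Tmem100 (0.328, 0.223–0.4701), Cxcl13 and Il33. Enpp2 encodes autotaxin, which makes lysophosphatidic acid, a lipid known to activate YAP, and Penk encodes the precursor of enkephalins. Adh1 is an alcohol dehydrogenase that also acts on retinol. The ratio of Fabp5 was 2.55 among cells of 8000 to 14000 UMIs, that of Bdnf 3.62 and that of Fbn2 2.497 after thinning, and that of Hspb2 2.096 under the split of UMIs and 1.54 with a threshold of 5 on the Vegfc and Amotl2 sum. With that threshold Ecscr stood at 2.49, Bdnf at 3.41, Plekha7 at 3.54 and Bmp3 at 5.39. Dpp4 stood at 2.84 with that threshold and 6.72 with at most 5% mitochondrial UMIs, and Tmem100 at 0.501 and 0.211. Lrrc55 stood at 0.492 in F columns and Nav1 at 0.495 after thinning. Plekha7, which encodes a junction protein, stood at 30.5 in M and 3.86 in F columns.

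**Figure D2:**
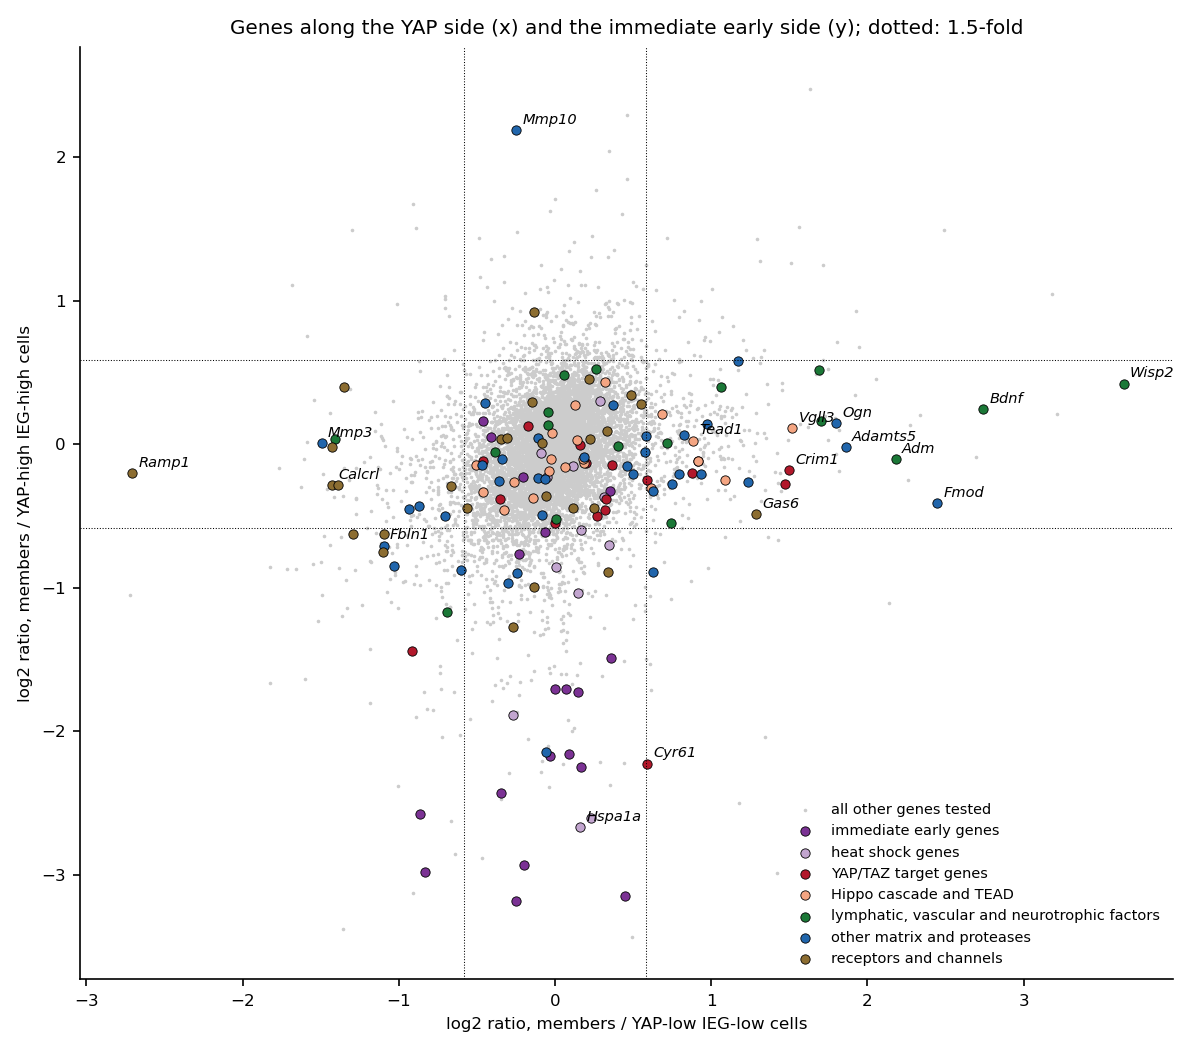
Each of 9800 points is a gene kept in both comparisons, placed by its log2 ratio of members to YAP-low IEG-low cells (x axis) and to YAP-high IEG-high cells (y axis), with dotted lines at 1.5-fold and colours for 7 gene lists. The YAP-side genes Adm, Bdnf, Crim1 and Vgll3 lie near 0 on the y axis. Most immediate early genes lie low on the y axis, and Cyr61 lies on the low side of y and the high side of x.

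The immediate early side was described by the ratio of members to YAP-high IEG-high cells. Of 9977 genes kept 313 (3.14%) were at least 1.5-fold higher in members and 764 (7.66%) at least 1.5-fold lower, around a median ratio of 0.979. Of these 1077 genes, 1045 lay on the same side of 1 in the M and the F columns, again a description, and 981 lay on the same side in the corresponding ratio among YAP-low cells. Fos, Fosb and Egr1 set the threshold, so the values on this side are a description.

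Of 24 other immediate early genes kept, 20 were at least 1.5-fold lower in members and none was higher, with a median ratio of 0.223. Atf3, a stress-induced transcription factor, stood at 4.62 CPM (3.12–6.59) in members, 114 in YAP-high IEG-high, 4.73 in YAP-low IEG-low and 117 in YAP-low IEG-high cells. Junb, an AP-1 subunit, stood at 240.5 CPM (229–253) in members, 1295 in YAP-high IEG-high, 305 in YAP-low IEG-low and 1657 in YAP-low IEG-high cells. Nr4a1, an orphan nuclear receptor, stood at 24.3 CPM (20.7–28.4) in members, 186 in YAP-high IEG-high, 27.9 in YAP-low IEG-low and 213 in YAP-low IEG-high cells. In each case the 2 IEG-low groups were close to each other and the 2 IEG-high groups were several times above them. Heat shock genes followed, with 7 of 12 lower and none higher. Hspa1a had a ratio of 0.157 (0.139–0.178) and Hspa1b of 0.164 (0.129–0.206), though these near-identical genes may share reads, and Dnajb1, their co-chaperone, had one of 0.2696 (0.223–0.325).

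Of 26 chemokine, cytokine and adhesion genes kept, 9 were lower in members and 5 higher, beside 7.66% lower and 3.14% higher of all genes. Ccl2, which draws monocytes, stood at 16.5 CPM (13.5–19.9) in members, 178 in YAP-high IEG-high, 11.7 in YAP-low IEG-low and 126 in YAP-low IEG-high cells. Il6 had a ratio of 0.101 (0.0614–0.159), Cxcl1 0.126 (0.102–0.155) and the adhesion molecule Icam1 0.205 (0.1903–0.222). Il6 stood at 0.0347 after thinning and 0.0584 with a threshold of 10 on the immediate early genes, and Cxcl1 at 0.206 with one of 25. The chemokines Cxcl14 (2.14, 1.91–2.41), Cxcl13 (1.69, 1.42–2.02) and Ccl11 (1.52, 1.47–1.58) were on the higher side. With stricter marker limits, which left 51 members and 11 YAP-high IEG-high cells, Cxcl14 stood at 0.7403 and Cxcl13 at 0.713. Of the YAP/TAZ target list Cyr61 (0.214, 0.201–0.227) and Gadd45a (0.368, 0.279–0.482) were lower and none of 17 was higher, and of the Hippo and TEAD list 0 of 20 passed 1.5-fold in either direction. Across the matrix list 8 of 38 were lower and 1 was higher. The 12 lowest ratios of all included the NF-kappaB regulator Nfkbiz (0.0836, 0.0542–0.124) and the cell cycle inhibitor Cdkn1a (0.0963, 0.0662–0.136), which stood at 0.229 after thinning.

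The 12 highest ratios on this side were Fam162b (5.55, 3.301–9.97), Foxl1 (4.898, 2.44–11.2), Limd2 (4.12, 2.17–8.62), Sertm1 (3.61, 2.65–5.01), Myh14 (3.41, 2.02–6.101), Cpne8 (3.27, 2.04–5.49), Agt (3.19, 2.35–4.39), Snhg20 (3.08, 2.16–4.49), Wnt4 (2.82, 1.99–4.08), Fabp5 (2.81, 1.96–4.13), Wisp1 (2.699, 1.66–4.57) and Gm26682 (2.66, 1.796–4.04). Among cells of 8000 to 14000 UMIs Fam162b had a ratio of 3.18, Foxl1 2.62, Wnt4 1.72 and Fabp5 1.22. After thinning Foxl1 stood at 16.5, Snhg20 at 5.31 and Wnt4 at 4.72. Myh14 stood at 1.88 under the split of UMIs and 0.853 with stricter marker limits. Foxl1 marks subepithelial cells of the villus and crypt and stood at 10.8 CPM (8.401–13.6) in members, 2.20 in YAP-high IEG-high, 7.81 in YAP-low IEG-low and 1.27 in YAP-low IEG-high cells. Agt encodes angiotensinogen and stood at 39.7 CPM (35.02–44.9) in members, 12.5 in YAP-high IEG-high, 74.5 in YAP-low IEG-low and 17.6 in YAP-low IEG-high cells. Several of these genes were also high in the 84 cells with vFB3 markers, with 99.3 CPM for Fam162b, 349.9 for Wnt4 and 115 for Agt. The vFB3 genes that the gate did not use, Mmp10 and Fhl2, had ratios of 4.57 (3.21–6.66) and 1.67 (1.53–1.83), and on the YAP side 0.842 (0.721–0.982) and 1.15 (1.08–1.22). The YAP-side value of Mmp10 joins 0.493 in M and 1.36 in F columns, on opposite sides of 1. The ratio of Mmp10 to YAP-high IEG-high cells varied with the settings, from 1.802 in that depth window to 11.5 with at most 5% mitochondrial UMIs, 15.9 in F columns and 25.8 with a threshold of 25 on the immediate early genes. The gate allowed 1 marker of that class. When it allowed no marker of another class beyond 1 of FB4, 51 members were left and the ratio of Sertm1 was 0.7997 and that of Mmp10 0.975, both below 1.

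**Figure D3:**
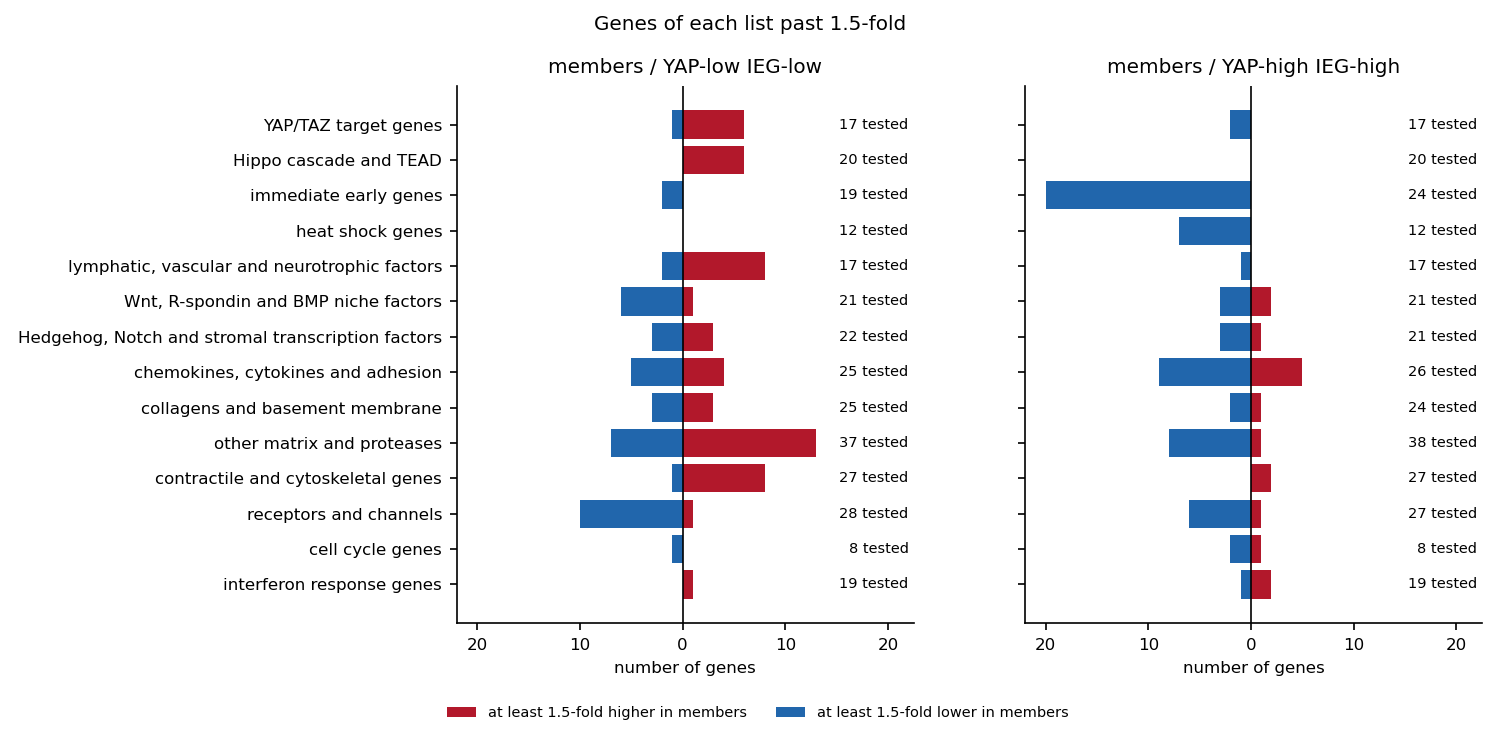
Bars count the genes of each of the 14 lists that were at least 1.5-fold higher (to the right) or lower (to the left) in members than in YAP-low IEG-low cells (left panel) and YAP-high IEG-high cells (right panel), with the number of genes kept beside each bar. The left panel shows 13 matrix genes higher and 10 genes lower in the receptor and channel list, which also holds secreted proteins, and the right panel 20 immediate early genes lower.

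Few genes were highest in members by a wide margin. The 8418 genes considered were limited to genes seen in at least 10% of members, so they entered through the group being ranked. Of these genes, 2121 were higher in members than in each of the other 3 gated groups and in the cells outside the gate. In 21 of them members were at least 1.5-fold above the next of these groups. No chance level was computed for these counts, which are a description. Stmn1, a microtubule-destabilising protein, led with 22.3 CPM against 9.29 in the next group, a ratio of 2.40. After it came Rai14 (1.90), Col22a1 (1.82), Fam162b (1.81), Tmem178 (1.79), Cmbl (1.74), the EGF family ligand Btc (1.72), AC126055.1 (1.65), the oestrogen receptor gene Esr1 (1.65) and Oxld1 (1.64). The cells outside the gate enter this ranking as 1 group, and within them the cells with vFB3 markers held Fam162b at 99.3 CPM against 21.7 in members. Among cells of 8000 to 14000 UMIs, Stmn1 had a ratio of 1.47 to YAP-low IEG-low and 1.29 to YAP-high IEG-high cells, and the ratio of Cmbl on the YAP side was 0.972 and that of Oxld1 1.15 when cells were thinned before the rule was applied. With stricter marker limits (51 members), Rai14 and Cmbl stood at 0.792, Col22a1 at 0.6855, Tmem178 at 0.975 and Oxld1 at 0.548 against 11 YAP-high IEG-high cells, and Fam162b at 0.686 against 94 YAP-low IEG-low cells, all below 1.

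Levels were followed across the threshold. The IEG-low cells of the gate were divided by their Vegfc and Amotl2 sum into 443 cells at 0, 371 above 0 and under 2, 174 from 2 to under 3, then 360 members from 3 to under 6, 155 from 6 to under 10 and 23 at 10 or more. Over these 6 bins Vgll3 stood at 20.1, 40.02, 71.98, 99.3, 117 and 197 CPM. Adamts5 stood at 59.4, 84.8, 162, 269, 403 and 602, and Adm at 8.95, 24.8, 43.1, 84.5, 114 and 204. All 3 were higher in each bin than in the one before. The listed targets Ctgf and Igfbp3 did not follow this order. Ctgf stood at 50.2, 63.7, 68.3, 84.2, 106 and 37.4 CPM, and Igfbp3 at 471, 545, 591, 375, 412 and 258. Bdnf had 2 UMIs in the cells at 0 and stood at 7.11 CPM in the next bin, 18.9 just below the threshold, and 38.9, 55.5 and 54.4 in members, where the last pair of bins did not differ beyond their intervals. On the lower side Sfrp1 stood at 2359, 1938, 1434, 860.3, 639.8 and 679.7 CPM. Ramp1 stood at 59.4, 33.2 and 13.7 below the threshold and at 5.899, 6.62 and 6.797 in members. The bins are cuts of the sum that chose the members, at a few UMIs per cell, so counting error mixes cells between neighbouring bins and the levels are a description. Median depth was 9066 UMIs in the cells at 0, 10080.0 and 9948.0 in the next bins, and 11669.5, 12652.0 and 12515.0 in the bins of members.

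**Figure D4:**
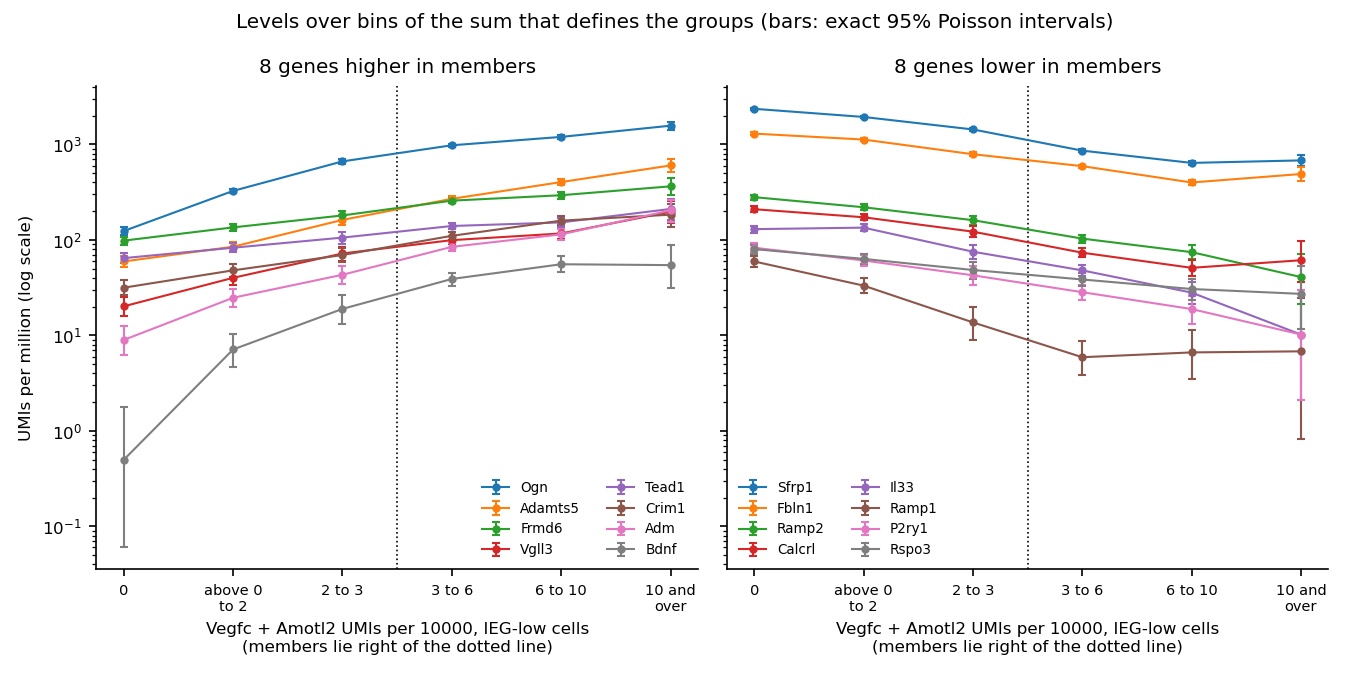
Levels in CPM (y axis, log scale) of 8 genes higher (left) and 8 lower (right) in members are plotted over the 6 bins of the Vegfc and Amotl2 sum among IEG-low gated cells (x axis), with exact 95% Poisson intervals and a dotted line at the threshold of 3. Vgll3 runs from 20.1 to 197 and Il33 from 129 to 10.2, with the bins on either side of the line between the extremes.

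Members that held only one of the pair of rule genes were compared with those that held both. Tead1 stood at 132 (94.7–179) CPM in the 29 cells with Vegfc only, 137 (101–181) in the 41 with Amotl2 only and 148 (138–158) in the 468 with both. For Bdnf the levels were 25.7 (11.1–50.7), 16.8 (6.15–36.5) and 47.4 (41.9–53.3), and for Ogn 988 (880.3–1105), 869 (775–971) and 1089 (1062–1116). These subsets were split by the rule genes and differ in median depth, at 10369, 9107 and 12208 UMIs, so the levels are a description.

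How much members differed among themselves was measured by the squared coefficient of variation of UMIs per 10000 beyond counting error. Over 2952 genes of at least 50 CPM in members its median was 0.0809. The widest spread was in Cxcl13 (6.83), AC160336.1 (6.43), C3 (5.05), the interferon gene Isg15 (4.81), Mt1 (4.76), the matrix gene Postn (4.51), Igfbp5 (4.48), Iigp1 (4.29), Lypd1 (4.26) and Nnat (4.07). In YAP-low IEG-low cells the same genes stood at 6.02, 4.37, 5.23, 4.23, 2.003, 5.04, 2.97, 3.1975, 4.05 and 6.78 in this order. C3, Postn and Nnat thus had higher values there. The cut of 50 CPM was set on members only, and Nnat and Lypd1 stood below it in the YAP-low IEG-low cells. Genes higher in members had both wide and narrow spread. Lypd1 and Nnat, among the widest, were also higher in members than in YAP-low IEG-low cells, at 50.3 against 14.4 CPM and 85.0 against 33.1. Of the genes described above, Fmod had a spread of 3.05 in members, Sertm1 2.18, Bdnf 1.35, Ecscr 0.776, Adamts5 0.769, Tex14 0.713 and Ogn 0.372. Sertm1 and Bdnf lay below 50 CPM in members. At low levels the measure is unreliable, and for Bdnf it was -2.86 in YAP-low IEG-low cells.

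The same ratios were read in the columns of each mark. On the YAP side Ogn had a ratio of 4.696 in M and 2.798 in F columns, Tead1 2.01 and 1.702, Adm 4.45 and 4.41, and Ramp1 0.166 and 0.1398. Bdnf stood at 10.7 and 5.07. Each of these lay on 1 side in both marks, with the size varying. Mmp10 did not, at 0.493 (0.376–0.6401) in M and 1.36 (1.098–1.68) in F columns. Since F columns are those with an Xist UMI, the marks divide 1 library and are not replicate samples.

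**Figure D5:**
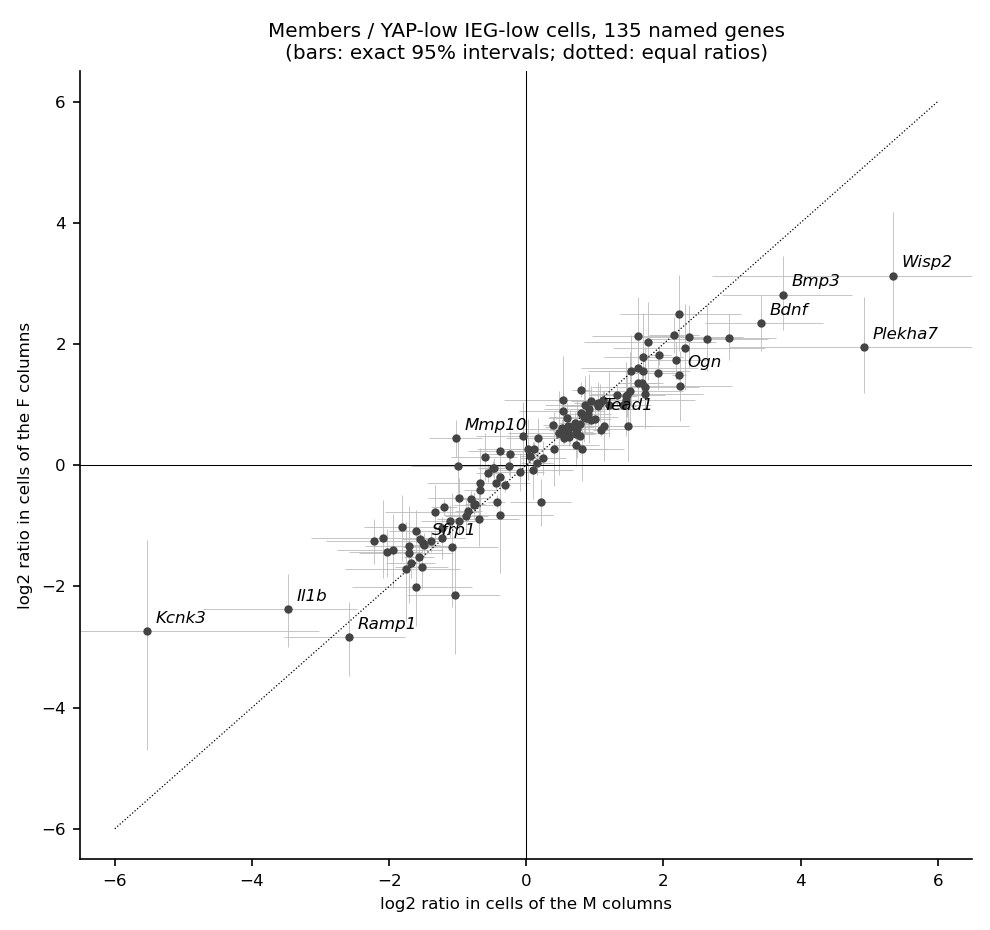
Each point is 1 of 135 named genes, placed by its log2 ratio of members to YAP-low IEG-low cells in the M columns (x axis) and in the F columns (y axis), with exact 95% intervals as bars and a dotted line of equal ratios. The ratios lie on the same side of 0 in both for 128 of the 135 genes, and Mmp10 is the named exception on the plot.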

How the data were processed

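Single cells of 1 library (4108 cells, 18619 genes) were analysed. Per the submitters' processing notes the reads were processed with Cell Ranger 3.0.2 and Seurat 3.0.1 on mm10. The authors removed cells with fewer than 1000 or more than 6000 genes (their guard against doublets) or over 7% mitochondrial UMIs, genes seen in fewer than 3 cells, and immune and endothelial clusters, and deposited the natural log of 1 plus UMIs per 10000 for each gene and cell. No doublet caller was run here. In 116 cells, 12 of them members, UMIs of Xist and of Y-linked genes occurred together, and 0 barcodes occurred in more than 1 column. No column was left unused.

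Values were turned back to UMIs. All 13789523 nonzero values were whole within 0.001, giving 46054627 UMIs, a median of 10726 per cell (1965 to 35727). The analysis had been planned for UMIs, and the recovered UMIs were used. Such counts are pooled over cells as CPM with exact Poisson intervals. Ratios have exact conditional binomial intervals and shares Clopper-Pearson intervals, all at 95%. Genes needed 5 CPM over both groups. Shares of cells were read after thinning to 5000 UMIs, which left out 8 members. For ratios given after thinning, the rule was applied again to the thinned cells. This gave 578 members and 1175 YAP-low IEG-low cells, so the groups were not the same cells. All computations used Python 3.11.15, numpy 2.4.6, scipy 1.17.1, pandas 2.3.3 and matplotlib 3.10.9, and were tested on simulated data. With 1 library there was no test.

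The members, the 14 gene lists and the marker lists were chosen with earlier results of these data known. Genes were named when they belonged to those lists, were among the 12 highest or lowest ratios of a comparison (in at least 10% of the cells of the higher group, with at least 50 UMIs), among the 10 most spread genes of at least 50 CPM, or among the 10 highest in members against the next group. Sex-linked and mitochondrial genes were left out of the ranking. Gene positions are from GENCODE for mm10. Alternatives covered the thresholds, thinning, depth, mitochondrial share, column marks, marker limits, a split of UMIs, weighting, fold and level filter. The comparison with cells that held neither rule gene was added after seeing the data. Some genes that met the naming rule are not reported here.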

Additional observations from a re-analysis of the deposited data

How the results depend on the processing

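No paired analysis was possible because 1 library was analysed and no group had replicates. Members were 20.8% of the gate. Their share was 27.6% and 10.5% with thresholds of 2 and 5 on Vegfc and Amotl2, 18.9% and 23.7% with thresholds of 10 and 25 on the immediate early genes, 18.6% among cells of 8000 to 14000 UMIs, 15.6% in M and 26.3% in F columns and 29.3% with stricter marker limits, which left 51 members. Against YAP-low IEG-low cells, the 372 genes at least 1.5-fold higher became 577 in M columns, 1468 with stricter limits, 136 at 2-fold, 220.0 with a filter of 20 CPM, 1681 with a filter of 1 UMI and 665 against cells without either rule gene. The 450 lower genes became 690.0 at no more than 5% mitochondrial UMIs, 838 in M columns, 1552 with stricter limits, 134 at 2-fold, 170.0 at 20 CPM and 2715 at 1 UMI. Against YAP-high IEG-high cells, the 313 higher genes became 489 with the threshold of 5, 619 after thinning, 472 with the mitochondrial limit, 638 in M and 491 in F columns, 2809 with stricter limits, 508 under the split of UMIs, 60.0 at 2-fold, 82.0 at 20 CPM and 2161 at 1 UMI. The 764 lower genes became 2250.0 with stricter limits, 228 at 2-fold, 311 at 20 CPM and 3063 at 1 UMI. Fewer cells and lower filters bring in genes with few UMIs. The named ratios recomputed next were chosen for passing 1.5-fold in these cells, which most settings reuse, so their counts are a description. Of 1414 recomputed values of 101 named ratios past 1.5-fold on the YAP side, 1412 lay on the same side of 1 and 1317 stayed past 1.5-fold. The exceptions in side were Fam162b at 0.686 with stricter limits and Cmbl at 0.972 after thinning. On the immediate early side 894 of 905 values of 71 ratios lay on the same side and 808 stayed past 1.5-fold. Under the stricter limits Sertm1 stood at 0.800, Cxcl13 at 0.713, C3 at 1.23, Cxcl14 at 0.740, Rai14 and Cmbl at 0.792, Myh14 at 0.853, Mmp10 and Tmem178 at 0.975, Col22a1 at 0.6855 and Oxld1 at 0.548. The cause was not tested.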
